A study of Drosophila melanogaster with 2 samples.

Results

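The regions described here are 2181 intronic binding peaks of the homeodomain protein Bsh, all of them inside protein-coding genes shorter than 50 kb. They were chosen by position alone from the 7927 peaks of the authors' IDR set. IDR stands for irreproducible discovery rate, and it scores how well a peak keeps its rank from one replicate to the other. A peak was included where its summit, the position of highest signal, lay more than 500 bp from every annotated transcription start site (TSS), in no annotated exon, inside a protein-coding gene, and inside no protein-coding gene of 50 kb or more. They made up 27.5% of the IDR peaks (exact binomial 95% interval 26.5 to 28.5). The other peaks comprised 1098 in introns of genes of 50 kb or more, 2863 within 500 bp of a TSS (promoters), 233 in exons outside promoters, and 1552 at other positions, intergenic or in introns of non-coding genes.

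The peaks came from chromatin immunoprecipitation followed by sequencing (ChIP-seq) on whole *Drosophila melanogaster* embryos aged 10 to 12 h. All embryos were of 1 group, the transgenic line bsh-GFP, in which the C terminus of Bsh is fused to green fluorescent protein (GFP); the description of the samples gives an anti-GFP antibody for the precipitation, while their antibody field names bsh. The series has 2 biological replicates of this group, and no line without the tagged protein was analysed here, so no comparison between conditions was possible. A whole embryo mixes all its cell types, so a weak peak in many cells and a strong one in few cannot be told apart. The signal of a peak is a score from the authors' peak caller. No read counts come with the peak lists, so the depth of each replicate is unknown.

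Bsh (brain-specific homeobox) is a transcription factor known for specifying neurons of the optic lobe. Homeodomains bind short AT-rich sequences, typically with a TAAT core, and many homeodomain proteins share that preference. Introns of fly developmental genes are a common home of enhancers, the sequences at which transcription factors bind and through which they act on a promoter some distance away, and the introns near the start of a gene are usually the longest.

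The sequences at the summits of strong intronic peaks are shown for their content of A and T, which over all intronic peaks was higher than in the DNA beside them. Each is the summit base with 50 bp on either side of it, read from the RefSeq sequence of genome release 6 (dm6), plus strand. Capitals mark the homeodomain core TAATTA, the forkhead motif TGTTTAC and the E-box CATATG, a form bound by Twist, each on either strand; forkhead motifs on the minus strand read GTAAACA.
CG11050, chr2L:6612658-6612758, 22.8% G+C: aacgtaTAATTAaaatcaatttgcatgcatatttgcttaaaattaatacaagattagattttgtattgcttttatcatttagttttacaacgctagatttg
Lk6, chr3R:11761006-11761106, 30.7% G+C: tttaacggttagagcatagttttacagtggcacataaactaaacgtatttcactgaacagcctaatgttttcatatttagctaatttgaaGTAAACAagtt
CG32772, chrX:4910314-4910414, 31.7% G+C: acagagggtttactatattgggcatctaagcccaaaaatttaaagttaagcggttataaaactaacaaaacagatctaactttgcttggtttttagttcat
CG9663, chr2L:3302148-3302248, 37.6% G+C: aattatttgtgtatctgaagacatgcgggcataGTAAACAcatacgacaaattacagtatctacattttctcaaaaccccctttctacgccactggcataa
Gug, chr3L:8458279-8458379, 19.8% G+C: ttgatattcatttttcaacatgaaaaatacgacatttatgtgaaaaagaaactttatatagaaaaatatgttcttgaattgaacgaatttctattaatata
Trl, chr3L:14759462-14759562, 32.7% G+C: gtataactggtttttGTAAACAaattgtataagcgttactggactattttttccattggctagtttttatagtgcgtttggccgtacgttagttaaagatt
Reph, chr2L:3804711-3804811, 34.7% G+C: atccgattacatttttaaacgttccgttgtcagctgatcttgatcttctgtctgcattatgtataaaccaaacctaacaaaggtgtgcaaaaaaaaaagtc
ImpL2, chr3L:4228328-4228428, 23.8% G+C: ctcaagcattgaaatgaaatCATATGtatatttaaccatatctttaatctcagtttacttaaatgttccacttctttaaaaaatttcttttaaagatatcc
For comparison, the windows of the same length centred 500 bp to the right are shown for Gug, whose summit was far lower in G+C than the flank, and Reph, whose summit was higher.
Gug flank, chr3L:8458779-8458879, 47.5% G+C: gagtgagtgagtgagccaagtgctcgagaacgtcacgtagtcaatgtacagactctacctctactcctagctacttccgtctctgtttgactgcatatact
Reph flank, chr2L:3805211-3805311, 28.7% G+C: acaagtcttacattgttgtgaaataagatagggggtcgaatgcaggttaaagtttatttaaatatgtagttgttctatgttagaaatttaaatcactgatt
The first 7 are the strongest intronic peaks on 2L, 3L, 3R and X whose window touches no exon, in order of signal, and ImpL2 is shown because it holds the strongest such peak with the E-box. Of the 10 strongest such windows, 2 held the homeodomain core and 3 the forkhead motif. Over all 2181 intronic peaks the summit windows that held them were 11.6% and 4.31%, and 10 windows are too few to compare with those shares. The G+C content of the 10 ran from 19.8% in Gug to 38.6% in Raf. In 6 of these 10 the flank touched no exon either. G+C was 30.7% at the summit and 44.6% in the flank in Lk6, 37.6% and 51.5% in CG9663, 19.8% and 47.5% in Gug. It was 32.7% and 47.5% in Trl, 26.7% and 39.6% in the peak shared by Hyls1 and chif, and 34.7% and 28.7% in Reph.

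The strongest intronic peaks reached the level of the strongest peaks of the series. The peak in CG11050 (FBgn0031836) lay on 2L at 6612421 to 6612963 and had a signal of 4004 in replicate 1, 2992 in replicate 2 and 6984 in the pooled replicates, which ranked it the 4th of all IDR peaks. Its summit stood in the second intron, which is only 140 bp long, 1021 bp from the nearest TSS. Lk6 (FBgn0017581), a kinase of the family that phosphorylates the translation factor eIF4E, held the next one in its first intron, with a signal of 2894 in replicate 1, 2114 in replicate 2 and 5011 pooled. The peak in CG32772 had 2560 in replicate 1, 1994 in replicate 2 and 4550 pooled, and that in the first intron of CG9663 had 2597, 1761 and 4467. Gug, which encodes the corepressor Atrophin, held a peak of 2366 in replicate 1, 1789 in replicate 2 and 4144 pooled in the second of its 14 introns, 7681 bp from any TSS. All 20 of the strongest intronic peaks were among the first 98 peaks of both replicates, so their place near the top did not rest on 1 replicate.

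The hosts of the other peaks among the 20 strongest are described by what each is known to do, with no count or test of function. Trl encodes the GAGA factor, and its peak, with a signal of 2178 in replicate 1, 1528 in replicate 2 and 3690 pooled, lay 1550 bp upstream of the TSS of its canonical transcript, inside longer transcripts of the gene. The peak shared by HmgD and HmgZ, neighbouring genes for DNA-bending high mobility group proteins, had a pooled signal of 3642. trx, the founding trithorax group gene and a histone methyltransferase, held a peak of 3181 in its first intron, and Alh, a chromatin protein related to human AF10, one of 3229 in the fifth intron. tara, another gene of the trithorax group, held a peak of 2877, the weakest of the 20, 11319 bp into the gene. Hr3, an ecdysone-induced nuclear receptor, shared a peak of 3955 with CG12912 and CG46321, which overlap it on the same strand.

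NFAT, the fly member of that transcription factor family, held a peak of 3353, and Raf, the kinase below Ras in receptor tyrosine kinase signalling, one of 3295 in its second intron. Pooled signals were 3682 in Reph, 3618 in CG12769, 3490 in the peak shared by Hyls1 and chif, 3158 in LPCAT, a phospholipid acyltransferase gene, and 3000 in CG31635. for, the cGMP-dependent protein kinase of foraging behaviour, held a peak of 3125, and ImpL2, a secreted protein that binds insulin-like peptides, one of 3015. Of the 20 peaks, 14 lay within 2000 bp of an annotated TSS, against 924 of all 2181 intronic peaks (42.4%) and 32.0% of the intronic bases that the rule allowed.

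The intronic peaks of genes under 50 kb were slightly stronger than those of longer genes and weaker than promoter peaks. Their pooled signal had a median of 311 (quartiles 207 and 549, range 151.6 to 6984), against 295 in introns of genes of 50 kb or more, 337 at promoters, 298 at other positions and 285 in exons. In a linear fit of log2 signal over all IDR peaks, with robust errors and p-values adjusted over the 4 comparisons, the difference was 0.09 ± 0.03 (SE, n = 7927 peaks; adjusted p = 0.00899) against long genes, −0.15 ± 0.03 (adjusted p = 1.58e-06) against promoters and 0.10 ± 0.03 (adjusted p = 0.00434) against other positions. The difference from exons, 0.12 ± 0.07, did not pass (n = 7927 peaks, adjusted p = 0.0618). The difference from long genes was 0.11 in replicate 1 alone and 0.10 in replicate 2 alone, but with ranks in place of log2 signal it no longer passed (n = 7927 peaks, adjusted p = 0.0581). All these differences are small beside the spread within each class, and the fit treats peaks as independent, although peaks are not biological replicates. Among the 1000 strongest IDR peaks, which are 12.6% of the set, were 262 of the intronic peaks (12.0%, 95% interval 10.7 to 13.5), against 9.11% of the peaks in long genes and 16.7% of promoter peaks.

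**Figure D1:**
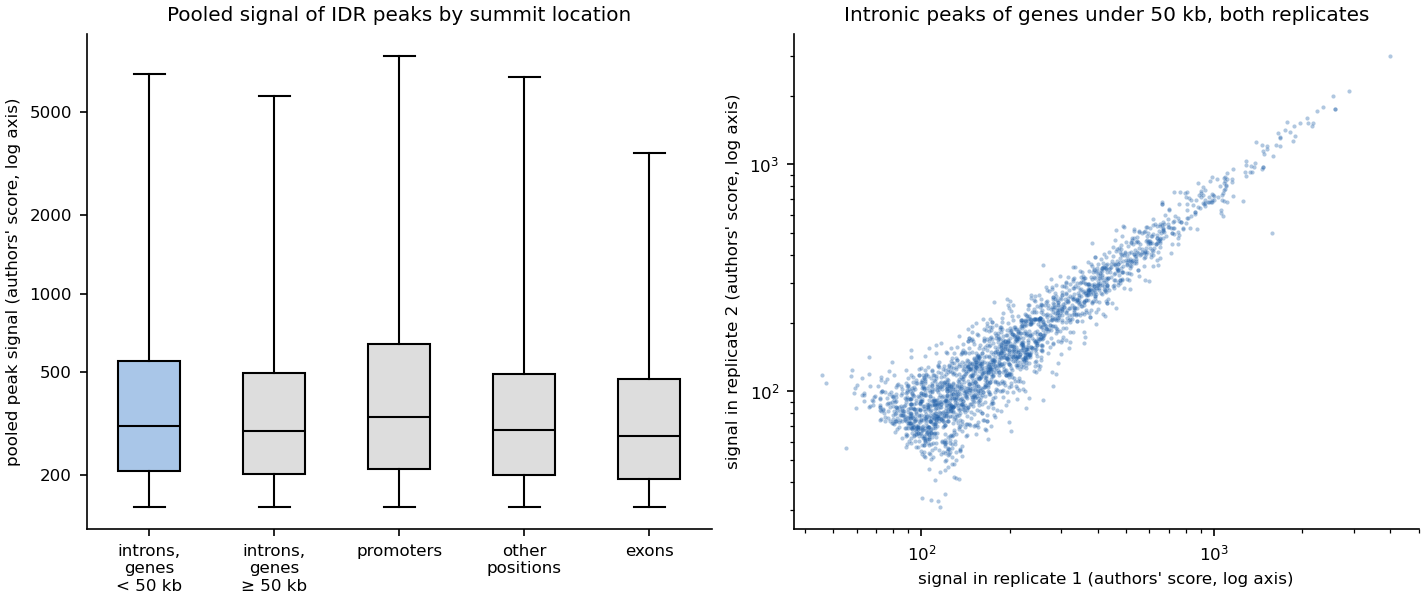
Left, pooled peak signal (authors' score, log axis) of IDR peaks by the location of the summit, with boxes from the lower to the upper quartile, the median as a line and whiskers to the lowest and highest value; the medians lie between 285 and 337 and the boxes overlap. Right, signal of the intronic peaks of genes under 50 kb in replicate 2 against replicate 1 (log axes), 1 point per peak; strong peaks lie close to a line and weak ones scatter.

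The replicates agreed on most of these peaks, as they did on the whole set. Of the 2181 intronic peaks, 1871 (85.8%, 95% interval 84.2 to 87.2) overlapped by at least 1 bp a peak among the 7927 strongest of each replicate, against 85.4% of all IDR peaks. A further 172 did so in replicate 1 and not in replicate 2, 127 in replicate 2 and not in replicate 1, and 11 in neither. The share was 100% in the 437 strongest of the peaks and 37.2% in the 436 weakest, whose signals lay between 151.6 and 191.9. IDR peaks are selected on the replicates, so these shares describe a selected set. In the full lists 7 intronic peaks had no counterpart in replicate 1 and 8 had none in replicate 2. Over the other 2166 the log2 signals of the 2 replicates correlated with r = 0.94 (Pearson) and rho = 0.90 (Spearman), given as a description, since the replicates shared their control file. The replicates' own summits lay a median of 19 bp apart, and in 85.4% of these peaks they were within 50 bp of each other.

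Intronic peaks were concentrated in the introns near the start of the gene. Of the 2288 pairs of a summit and a host gene (97 summits lay in several overlapping hosts), 1180 fell in the first intron of the host's canonical transcript, 51.6% (95% interval 49.5 to 53.6), where 37.1% of the intronic bases open to the rule lay. That is 113.9 per Mb of first intron, against 79.1 per Mb in the second introns, 52.5 in the third and 28.1 in introns numbered 4 or higher. The other 254 pairs lay outside the introns of the canonical transcript, mostly upstream of its TSS in introns of longer transcripts, at 116.5 per Mb. The median signal was 303 in first introns, 322 in second, 301 in the third and 286 in introns numbered 4 or higher, and it was highest, 360.3, outside the introns of the canonical transcript.

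Density was also lower further from the nearest annotated TSS, and the first intron stood above later introns at each distance. Between 500 and 1000 bp from a TSS there were 121.6 peaks per Mb of intron, and beyond 10000 bp 47.8 per Mb. Split by both measures, first introns held 135.1 pairs per Mb (95% counting interval 124.3 to 146.7) at 500 to 2000 bp, 102.2 (91.6 to 113.6) at 2000 to 5000 bp and 95.7 (84.6 to 107.9) beyond 5000 bp. Later introns held 68.5 (60.5 to 77.3), 54.9 (48.5 to 61.9) and 48.6 (43.5 to 54.2) per Mb at the same distances, with no overlap of the intervals at any of them. These intervals treat the pairs as independent, although 97 summits count for several hosts and some introns held many peaks, so they are too narrow. The median distance of a summit to a TSS was 2595 bp, against 3391 bp for the intronic bases open to the rule.

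**Figure D2:**
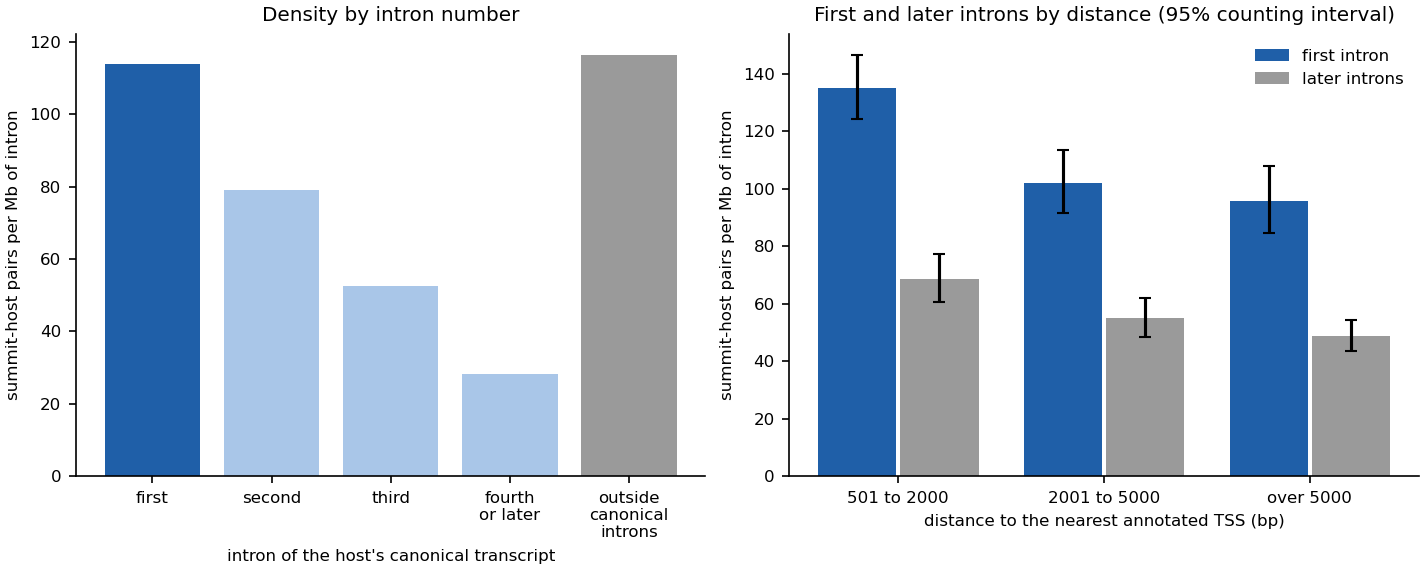
Summit-host pairs per Mb of intronic sequence open to the rule, by intron number in the host's canonical transcript (left) and by distance to the nearest annotated TSS in bp (right), with first introns left of later introns and 95% counting intervals as bars. The density runs from 113.9 per Mb in first introns to 28.1 per Mb in introns numbered 4 or higher, and first introns stand above later introns in each of the 3 distance ranges.

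For their length, the introns of these genes held more peaks than those of longer genes. Introns of all genes under 50 kb held 81.3 peaks per Mb, against 44.3 per Mb in introns of genes of 50 kb or more, 41.2 at other positions and 157.8 at promoters. The classes were not matched for distance to a TSS. Beyond 10000 bp from one, introns of genes under 50 kb held 47.8 per Mb. By the span of the longest host, the density was 57.9 per Mb in genes under 5 kb, 92.1 at 5 to 10 kb, 96.7 at 10 to 20 kb, 91.1 at 20 to 30 kb, 68.7 at 30 to 40 kb and 64.0 at 40 to 50 kb. By the length of the stretch free of exons, it was 52.6 per Mb in stretches under 2 kb and between 89.6 and 93.1 per Mb in the 3 ranges of longer ones. The median distance of a summit to an exon edge was 1214 bp, and 169 summits (7.75%) lay within 200 bp of one. The share of open intronic bases that near to an exon was not counted, so neither value can be called high or low. At the edges of the rule, the 52 intronic peaks over 500 and up to 550 bp from a TSS had a median signal of 346, and the 48 over 450 and up to 500 bp from one, just outside it, 314. The 158 peaks whose longest host spans 45 to 50 kb had a median of 284, and the 88 just outside, in hosts of 50 to 55 kb, 263.

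The peaks lay in 1104 of the 13638 protein-coding genes under 50 kb (8.10%), and in 12.8% of those with any intronic base open to the rule. Of these hosts, 604 held 1 peak, 216 held 2, 108 held 3 and 58 held 6 or more. Hosts were long genes for this range, with a median span of 14440 bp, against 2108.5 bp over all genes under 50 kb. Hosts more often had a Bsh summit at a promoter of their own as well: among genes with at least 5 kb of open intron, 355 of 727 hosts (48.8%, 95% interval 45.1 to 52.5) had an IDR summit within 500 bp of one of their own TSSs, against 139 of 772 genes without an intronic peak (18.0%, 15.4 to 20.9). Hosts and the other genes were not matched for their number of annotated TSSs.

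The genes with most intronic peaks held 8 to 12 each. mew, which encodes the integrin subunit alphaPS1, held 12 with pooled signals from 172 to 772, and 11 of them were in its first intron. CHES-1-like, a forkhead box transcription factor gene of 27048 bp, held 11 with signals from 212 to 2408, a denser set at 0.736 per kb of open intron, against 0.328 per kb in mew. CG42663 held 10, none above 533. Hr3 and the overlapping CG12912 shared 9, all in their first introns. Both crp, which encodes a bHLH-leucine zipper factor, and tou, which encodes a chromatin protein that associates with Polycomb and trithorax group proteins, held 9. Raf held 8 with a median signal of 919, and tara 8 with a median of 478. CG46321, within the span of Hr3, also held 8.

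Among 16 gene lists, the number of intronic peaks per Mb of open intron in the genes under 50 kb, compared without a test, was highest in the pathways of BMP, Hedgehog, EGF and FGF signalling and, of the lists with a peak, lowest in neuronal function. The share of host genes was between 21.1% and 50% in the 15 lists with a peak, against 8.10% of all genes under 50 kb. That 8.10% includes many genes with little or no open intron. Among the 1499 genes with at least 5 kb of it, 48.5% were hosts, so the shares do not show that the lists stand out for their intron length. The genes listed for these signalling pathways held 58 peaks in 15 of 39 genes, 207.6 per Mb (95% counting interval 157.7 to 268.4), against 81.3 per Mb over all genes under 50 kb. The list is not a full account of the pathways: Raf, with 8 peaks and a strongest of 3295, was not counted in it. Mad, the transcription factor that transmits BMP signals, held a peak of 1334 in replicate 1, 983 in replicate 2 and 2320 pooled, and Dad, its inhibitor, 1 of 1683 pooled. S (Star), which is needed for the export of EGF ligands, held 7 peaks, the strongest at 1607, and aop, an ETS repressor that acts below Ras, had a strongest peak of 1586. The list's genes aos, babo and brk held none. Here and below, genes without a peak were named whether or not they have any intronic base open to the rule. Of all 13638 genes under 50 kb, 8609 have one, and a gene without one could hold no intronic peak.

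The Polycomb and trithorax groups held 22 peaks in 8 of 27 genes, 190.6 per Mb (119.4 to 288.5), with a median signal of 503, against 311 over all intronic peaks. Besides Trl, trx and tara, ph-p, a subunit of the Polycomb repressive complex, held a peak of 1144, while ash1, ash2 and Asx held none. The list of glia and septate junctions held 18 peaks in 7 of 28 genes, 183.1 per Mb (108.5 to 289.4). Mcr, a septate junction protein of the macroglobulin complement-related family, held a peak of 655 in its first intron, Gs2, a glutamine synthetase gene, 1 of 643, Nrg, the fly neuroglian, 1 of 630, and loco, a regulator of G protein signalling in glia, 1 of 492. alrm, bou and Cont had none.

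Mesoderm and muscle genes held 37 peaks in 11 of 39 genes, 136.2 per Mb (95.9 to 187.8), led by mbc, needed for myoblast fusion, at 1895, by rhea, which encodes talin, at 887, and by how, an RNA-binding protein of muscle and tendon, at 877. mew belongs to this list too, and Act57B, Act79B and Act87E had no peak. Genes of the epithelium, cuticle and trachea held 32 in 14 of 29 genes, 98.7 per Mb (67.5 to 139.3), with the strongest in rib, a regulator of tube formation, at 1857 and grh, a regulator of epidermal barrier genes, at 1642. crb, a determinant of apical polarity, held a peak of 713 and ck, an unconventional myosin, 1 of 570, and alpha-Cat, arm and btl held none. Cytoskeletal genes held peaks in 16 of 32 genes, 50%, against 48.3% in the list of epithelium, cuticle and trachea, an order that turned round with 1000 bp from a TSS (40.6% and 44.8%). They held 129.3 peaks per Mb (89.03 to 181.6), and Moe, Dhc64C, sn and Fhos had strongest peaks of 1618, 1577, 1530 and 1226. Abi, Act5C and alphaTub84B were without one. Gut, fat body and blood genes held 8 in 4 of 19 genes, 60.4 per Mb (26.1 to 119.1), led by lab at 516, cad at 436, lz at 395 and Hnf4 at 184, and none were in bap, bin or byn.

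Wnt and planar polarity genes held 39 peaks in 10 of 28 genes, 133.2 per Mb (94.7 to 182.1). The strongest were in nkd, a Wnt antagonist, at 1187, in the ligand gene Wnt4 at 954, and in dnt and drl, both receptors of the Ryk family, at 779 and 670; Apc, Apc2 and arm held none. Notch pathway genes held 9 in 5 of 19, 78.3 per Mb (35.8 to 148.7). The receptor gene N held a peak of 1683, neur, a ubiquitin ligase for Notch ligands, 1 of 959, fng, a glycosyltransferase that modifies Notch, 1 of 628, and Nedd4, a ubiquitin ligase, 1 of 534, with none in AP-2alpha, aph-1 or dx.

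Among transcription factors, the bHLH factors held 28 peaks in 10 of 37 genes, 146.8 per Mb (97.6 to 212.2). sim, the master regulator of the nervous system midline, held a peak of 666 in replicate 1, 682 in replicate 2 and 1358 pooled, crp 1 of 1247, Mnt, a Max-binding repressor, 1 of 864 and dysf 1 of 758. The proneural genes ac, amos and ase held none, but whether they have any intron open to the rule was not recorded, so this says nothing about binding near them. Zinc finger regulators held 25 in 10 of 35, 114.9 per Mb (74.3 to 169.6), with ken at 1284, bowl at 823 and grn at 350 after Trl, and none in btd, cas or Cf2. Nuclear receptors held 15 in 4 of 17, 87.4 per Mb (48.9 to 144.1), of which 9 were in Hr3; Eip78C had a strongest peak of 489, knrl of 437 and Hnf4 of 184, and dsf, eg and ERR had none.

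Homeodomain genes held 46 peaks in 20 of 62 genes, a share of hosts of 32.3%. It was 8.10% of all genes under 50 kb and 48.5% of those with at least 5 kb of open intron. Among the 3963 strongest IDR peaks the share of homeodomain genes was 17.7%, against 5.18% of all genes. Homeodomain genes held 59.7 peaks per Mb of open intron (43.7 to 79.6), against 81.3 per Mb over all genes under 50 kb. That comparison was not matched for gene span. In all hosts of 30 to 40 kb the density was 68.7 per Mb and in those of 40 to 50 kb 64.0, both within the interval of the list. zfh1, expressed in mesoderm and motor neurons, held the strongest at 1638, followed by the Hox gene Abd-B at 838 and the LIM homeodomain genes Lim1 at 801 and Awh at 798. abd-A, ap and B-H1 had none, and bsh itself, a gene of 3292 bp, held no intronic peak, though 2 IDR summits lay within 5 kb of it. Of 34 genes matched for neuronal function, the 26 under 50 kb held 17 peaks in 8 genes, 56.3 per Mb (32.8 to 90.1). The strongest was one of 570 in elav, the pan-neuronal RNA-binding protein. fne, a relative of elav, had a strongest peak of 478, dlg1, a synaptic scaffold, 422 and Rbp9, another relative of elav, 414; brp, ChAT and cpx had none. Of 46 genes matched for axon guidance and neuronal adhesion, the 26 under 50 kb held 31 peaks in 9 genes, 68.7 per Mb (46.7 to 97.5). The longer genes of the list were outside the rule. fra, the Netrin receptor, held a peak of 1730, NetA, a Netrin, 1 of 1229, Nrg 1 of 630 and Sema5c 1 of 604, and beat-Ia, dpr10 and Dscam2 held none. No peak lay in the 87 genes of cytoplasmic ribosomal proteins, whose introns open to the rule sum to only 0.00526 Mb.

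**Figure D3:**
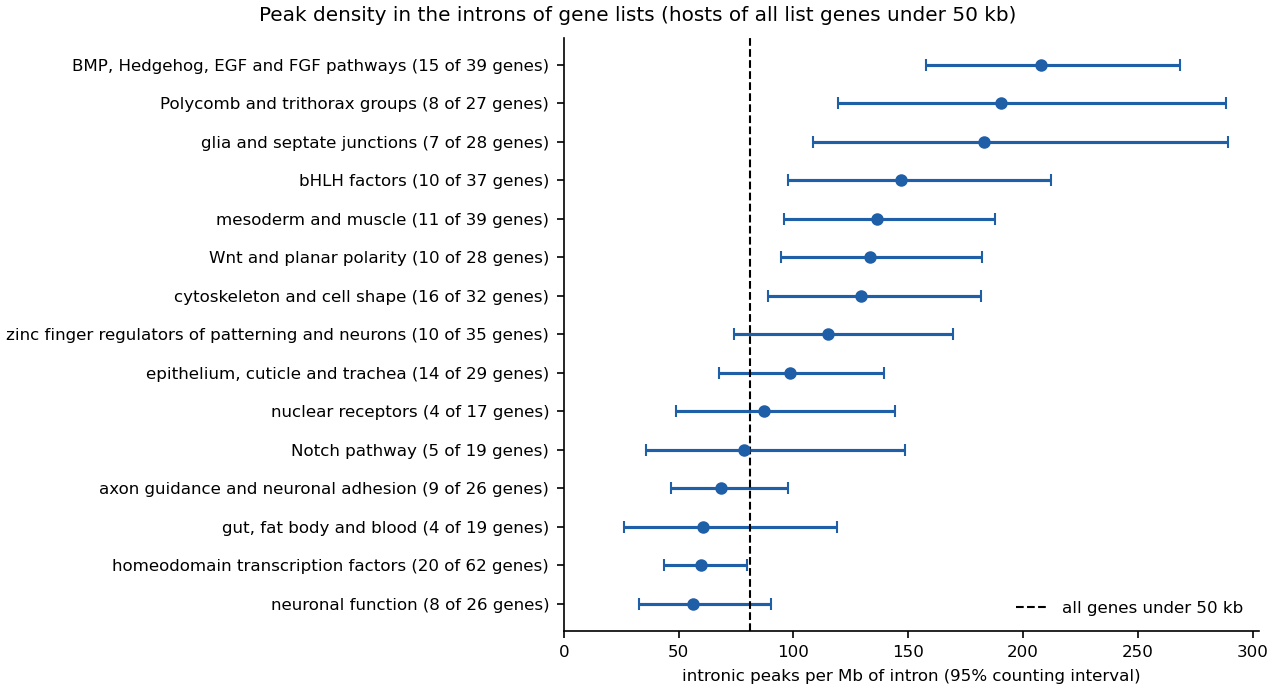
Intronic peaks per Mb of intron open to the rule in 15 gene lists that hold at least 1 peak, with 95% counting intervals as bars, the number of host genes of all list genes under 50 kb in brackets, and the 81.3 per Mb of all genes under 50 kb as a dashed line. The lists run from 207.6 per Mb for BMP, Hedgehog, EGF and FGF signalling to 56.3 per Mb for neuronal function.

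The summits sat in short dips of G+C content. The windows from 50 bp left to 50 bp right of the summit held 31.5% ± 7.8 G+C (SD, n = 2181 peaks; range 8.91 to 65.3), against 42.3% ± 9.3 in windows centred 500 bp to the right and 42.1% ± 9.2 to the left. G+C was lower at the summit than to the right in 1782 peaks, higher in 367 and equal in 32 (exact two-sided sign test p = 2.97e-222, a test added after the data were seen). Some flanks reach exons, which the rule keeps the summits out of: among the 1886 peaks with no exon in either window, the means were 31.4% at the summit and 41.4% in the flank, lower at the summit in 1513 and higher in 341 (exact sign test p = 9.79e-176). All 246459 windows of the same length that tile the introns open to the rule averaged 39.7% ± 9.3, and 19.3% of them were at or below the median of the summits, 30.7%.

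The dip was narrow and flanked by shoulders. Averaged over the intronic peaks, G+C was lowest around the summit, 30.5% in means over 21 bp, and was back to the midpoint between that and the level beyond 800 bp, 40.8%, within a stretch of 141 bp. On both sides it went above that outer level, to 44.6% at 270 bp to the left and 44.5% at 230 bp to the right. Summit G+C was lower in stronger peaks, a comparison made without a test: the mean was 29.1% in the 437 strongest and, in order of falling signal, 30.4%, 31.5%, 32.1% and 34.2% in the other sets of 436 peaks, while the flanks lay between 41.5% and 43.0% in all of them. The dip was present in the other large classes too: summit windows held 31.5% G+C in the intronic peaks of genes under 50 kb, 30.9% in introns of longer genes, 30.5% at other positions and 32.9% at promoters. Bases soft-masked as repeats made up 24.2% of the summit windows, 17.7% of the right flanks and 20.3% of the introns open to the rule; their part in the dip was not tested.

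**Figure D4:**
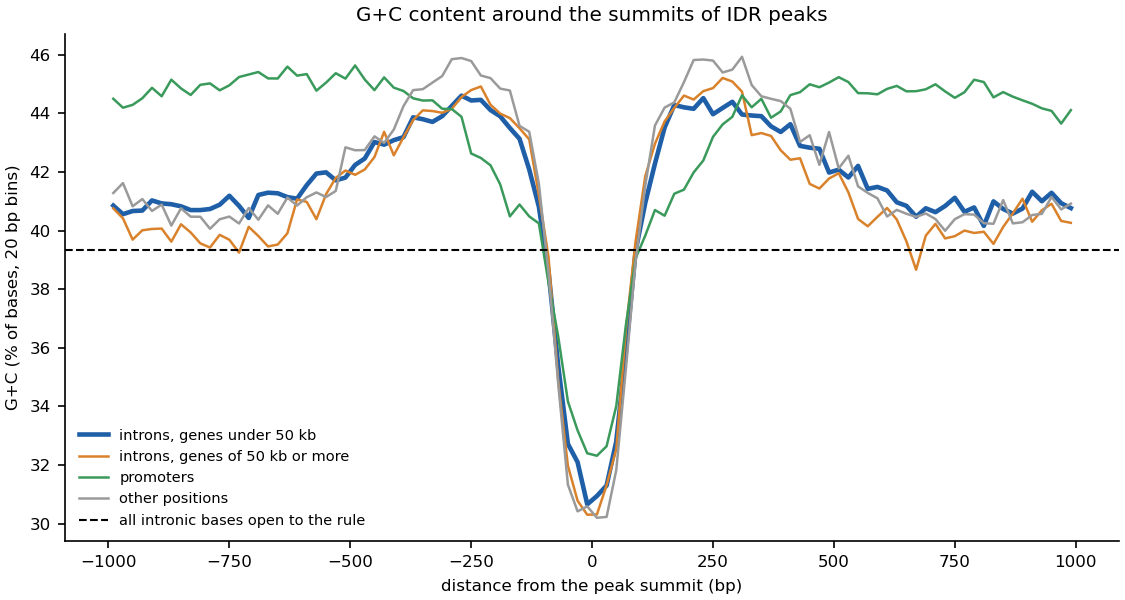
Mean G+C content (% of bases, 20 bp bins) against distance from the summit in bp, for intronic peaks of genes under 50 kb (blue), introns of longer genes (orange), promoters (green) and other positions (grey), with the mean of all intronic bases open to the rule as a dashed line. All 4 lines dip at the summit, and the blue one runs from shoulders of about 44.5% down to 30.7%.

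Short sequences followed this composition. Of all sequences of 6 letters (6-mers, both strands joined), 390 (18.8%) were more frequent at the summits than in the right flank and 868 (41.7%) less frequent, by exact two-sided McNemar tests on peaks that hold the 6-mer in only 1 of the windows, with Benjamini-Hochberg adjustment over all of them and a threshold of 0.05. All 36 6-mers without G or C were higher, 179 of the 192 with 1 such letter were, and none of those with 4, 5 or 6. The median odds, the ratio of peaks with the 6-mer only at the summit to peaks with it only in the flank, ran from 2.24 for 6-mers with no G or C through 1.27 for 2 and 0.456 for 4 to 0.242 for 6. TAAATA was the 6-mer with the smallest p: 33.2% of the summit windows held it, against 14.1% of the flanks (606 peaks only at the summit, 189 only in the flank, adjusted exact p = 2.21e-48). Next by p came AAATAT. The 6-mers TTAAAA and then ATATTA followed it. Lowest in p among those less frequent was GCCAGC, in 1.88% of summit windows and 7.57% of flanks (adjusted exact p = 4.97e-18).

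The homeodomain core was more frequent at the summits than beside them, as were its letters in reverse order. Of 27 motifs tested in the same way, 5 were higher at the summit, 9 lower and 13 passed in neither direction. TAATTA was in 11.6% of the summit windows (95% interval 10.2 to 12.97), 6.42% of the right flanks and 8.03% of all windows that tile the introns, with 238 peaks that held it only at the summit and 126 only in the flank, odds of 1.89 (adjusted exact McNemar p = 6.13e-08). Its letters in reverse order, ATTAAT, had odds of 1.82 (10.5% and 6.05%, adjusted exact p = 9.75e-07). Among the 36 6-mers with no G or C, TAATTA had log2 odds of 0.91 and the median was 1.17. The variant TAATTG was in 12.1% of summit windows and 11.0% of flanks and did not pass (adjusted exact p = 0.39). Among the 192 6-mers with 1 letter G or C, TAATTG had log2 odds of 0.16 and the median was 0.90. Its reversed letters, GTTAAT, had odds of 1.60 (adjusted exact McNemar p = 4.36e-04). The Caudal and Abd-B type motif TTTATGG was in 3.21% and 2.93% (adjusted exact p = 0.711). TGATNNAT, a joint motif of Exd and Hox proteins, was in 10.1% and 6.88% (odds 1.52, adjusted exact p = 5.22e-04), while its reversed letters had odds of 2.54.

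The forkhead motif was more frequent at the summits too. TGTTTAC was in 4.31% of the summit windows, 2.34% of the flanks and 2.35% of all tiling windows (odds 1.86, adjusted exact McNemar p = 0.0011), and its reversed letters had odds of 1.46, which did not pass (adjusted exact p = 0.0544). The difference between the 2 orders was itself not tested; of the 5 higher motifs, TGTTTAC and TAATTA had larger odds than their reversed letters, and the other 3 had smaller odds. In the 1090 strongest of the peaks TGTTTAC no longer passed (odds 1.62). CATATG, the Twist E-box, was in 5.59% and 3.94% (odds 1.44, adjusted exact p = 0.0273), and TAAAAATAG, a MEF2 site, in 0.825% and 0.275% (odds 3, adjusted exact p = 0.0437); both calls were lost under most alternatives.

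Of the 9 motifs with 4 or more letters G or C, 6 were rarer at the summits than in the flanks and 3 passed in neither direction. GAGAG, bound by the GAGA factor and CLAMP, has 3 such letters and was in 8.90% of summit windows, 15.04% of flanks and 11.0% of tiling windows (odds 0.569, adjusted exact McNemar p = 3.72e-08). The ETS core CCGGAA was in 0.825% and 2.93%, CAGCTG, the E-box of proneural factors, in 2.29% and 5.27%, and GTGGGAA, the site of the Notch effector Su(H), in 0.367% and 1.74%. Also lower were the E-box CACCTG, the CA repeat CACACACA, the longer GAGA motif GAGAGAG, and the motifs TGACAG and TGAGTG. Motifs that passed in neither direction included those of GATA factors (6.24% and 5.59%), AP-1 (3.30% and 2.71%) and Zelda (0.367% and 0.642%). GGTCACAC, a core promoter motif with 5 letters G or C, was in 0.367% and 0.229%.

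**Figure D5:**
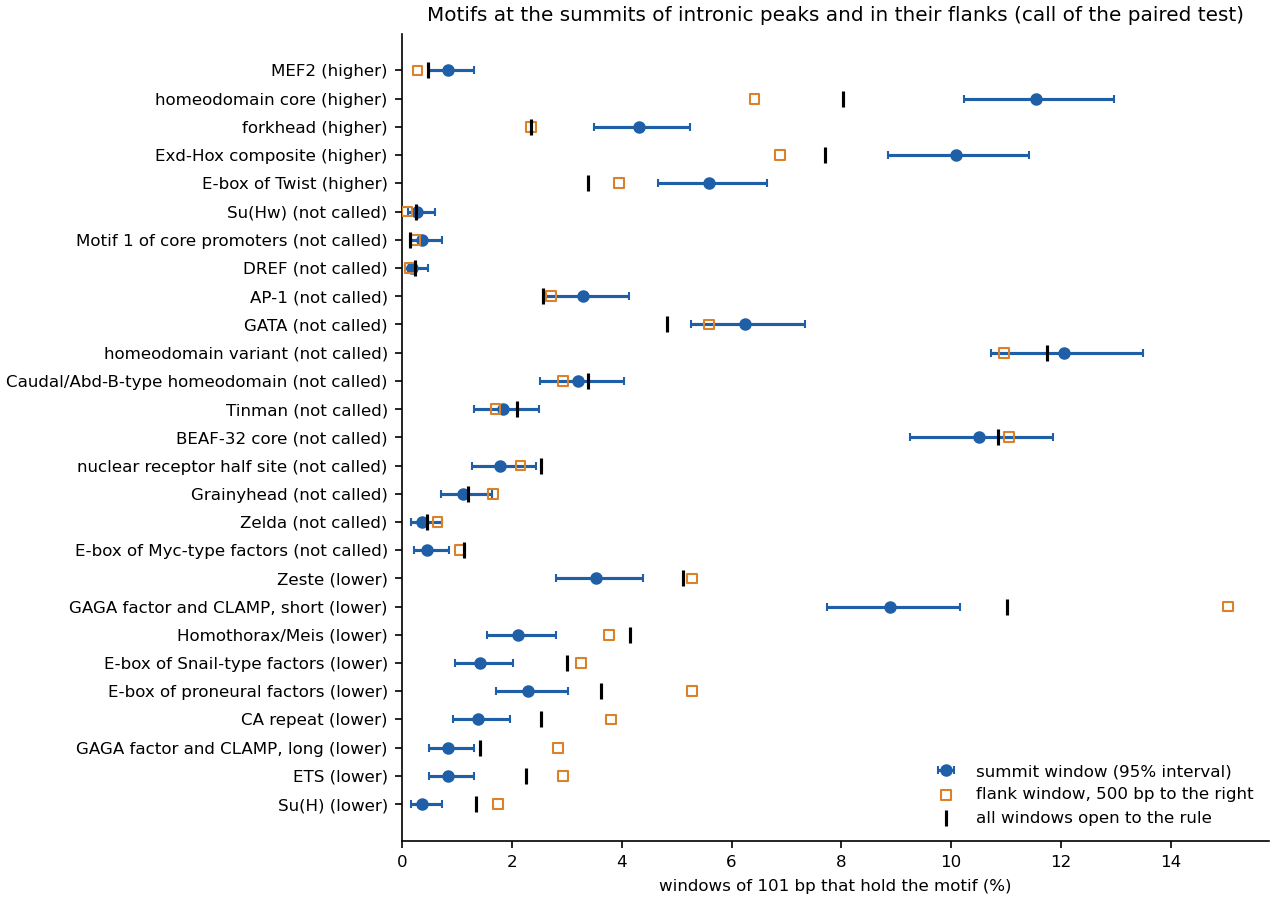
Share of windows (summit or flank centre with 50 bp on either side) that hold each of 27 motifs (%), at the summits of the intronic peaks (filled points with 95% intervals), in flanks 500 bp to the right (open squares) and in all windows that tile the introns open to the rule (bars), with the call of the paired test in brackets. TAATTA, the homeodomain core, stands at 11.6% at the summits and 6.42% in the flanks, and the short GAGA motif at 8.90% and 15.04%.

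Between intronic peaks and other IDR peaks the motif shares differed in few cases. In logistic fits over the intronic peaks and the other IDR peaks outside exons, which treat peaks as independent, with p-values adjusted over 80 comparisons, none of 26 motifs differed from introns of longer genes, 1 of 27 differed from other positions and 6 of 27 from promoters. TATCGATA, the motif of the promoter-bound factor DREF, was in 0.183% of the intronic summits and 2.31% of the promoter summits (odds ratio 0.0779, 95% interval 0.0283 to 0.214, n = 6596 peaks, adjusted p = 2.97e-05); the peaks in longer genes, none of which held it, were left out of that fit. CGATA, the core of BEAF-32 sites, was in 10.5% and 17.2% (odds ratio 0.565, n = 7694 peaks, adjusted p = 2.20e-09), and CCGGAA in 0.825% and 2.44% (odds ratio 0.332, adjusted p = 8.96e-04). GTGGGAA was lower too, at 0.367% and 1.15% (n = 7694 peaks, adjusted p = 0.0403), a call lost with G+C content in the fit. Higher than at promoters were CATATG, at 5.59% and 3.25% (odds ratio 1.76, n = 7694 peaks, adjusted p = 0.00108), and the AP-1 motif TGANTCA, at 3.30% and 1.92% (odds ratio 1.74, adjusted p = 0.0292). TGTTTAC was at 4.31% in the intronic peaks and 2.38% at other positions (odds ratio 1.84, n = 7694 peaks, adjusted p = 0.0292). No difference in TAATTA passed: it was in 11.6% of the intronic summits, and the interval of its odds ratio included 1 against each of the 3 classes.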

How the data were processed

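The data are ChIP-seq peak lists of 2 biological replicates. Per the deposited text files, the authors called peaks on each replicate and on both pooled, with the same control file, and derived the IDR set from these lists; replicate and pooled lists hold 30000 peaks each. The sources used here name no caller or aligner and no IDR threshold. The signal of each peak is a score deposited by the authors, whose scale differs between lists, so lists were not divided by each other. A summit offset, also deposited, counts bp from the start of the peak. Coordinates are on dm6, per the labels. The source name gave the age, since the labels' age field cannot be an embryo's age.

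Gene models were those of Ensembl release 115, with 5889 transposable element records left out. Bases on Y were left out of densities, while any promoter or other peaks there were kept, and no intronic peak lay on Y. Members, gene lists (7 symbols unmatched) and motifs were chosen with earlier results of these data known. Genes named are the hosts of the 20 strongest peaks, the 10 with most peaks (ties broken by the strongest peak), and in each list up to 4 hosts with the strongest peak and up to 3 non-hosts in alphabetical order. Intervals are exact binomial or Poisson and cover counting error only. Fits were checked on simulated data. Python 3.11.15, numpy 2.4.6, pandas 2.3.3, scipy 1.17.1, statsmodels 0.14.6 and matplotlib 3.10.9 were used. Alternatives were other TSS distances, gene spans, window widths and flank sides, single replicates and stronger or isolated peaks.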

Additional observations from a re-analysis of the deposited data

How the results depend on the processing

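Most values kept their direction and their side of the threshold, and none reversed. The count of intronic peaks was 1086 among the 3963 strongest IDR peaks, where 99.6% were in both replicates and 5.18% of genes under 50 kb were hosts, against 6.32% with 1000 bp from a TSS. It was between 2168 and 2182 with either replicate left out, and 2153 with transposable element records kept. The share in first introns was 53.7% with a span limit of 40 kb, and between 50% and 52.0% under the other alternatives. The median signal relative to long genes, 1.05 in the pooled replicates, was 1.02 without replicate 1 and 1.06 without replicate 2. Against exons the log2 difference was 0.0935 without replicate 1 and 0.165 without replicate 2, where it passed (n = 7897 peaks, adjusted p = 0.0165). These fits took the signals of the other replicate over the same IDR set, which was still selected on both replicates. Against long genes the mean rank differed by 166.5 places (n = 7927 peaks, adjusted p = 0.0581). Of the 5 motifs higher at the summit, 3 were called with windows of 25 bp or 100 bp on either side, with no other IDR peak within 1000 bp, without replicate 1 or 2 and with both windows outside exons, and 2 in the 1090 strongest peaks; TAATTA and TGATNNAT passed in each of these. With 25 bp on either side 5 motifs were lower, against 9, and 0 were higher than in other IDR peaks, against 3. The cause of these changes was not tested. Where a peak list is the only measure, weak peaks depend on the cut of that list, and depth is unknown. No paired analysis was possible because the series has only 1 group.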

Other observations

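The intronic peaks were not spread evenly over the chromosomes. X held 490 of them, 109.3 per Mb of intron open to the rule, against 72.1 on 2L, 75.7 on 2R, 88.5 on 3L and 74.2 on 3R. Introns of genes of 50 kb or more held 59.4 per Mb on X, 60.2 on 2L, 37.9 on 2R, 40.2 on 3L and 32.1 on 3R, so X and 2L were alike there. Chromosome 4 held 3 intronic peaks, 5.63 per Mb in 0.533 Mb of open intron. The median signal lay between 284 and 317 on all 6. The control sample was not analysed here, so the number of copies of X in the embryos and its part in these densities were not tested.

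Peaks often had company: 541 of the 2181 intronic peaks (24.8%) had another IDR summit within 1000 bp, against 19.8% in introns of longer genes, 18.8% at promoters and 22.4% at other positions.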
